A study of Homo sapiens with 7 samples.

Results

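The genes described here are 10 genes grouped under simple and glandular epithelium. These are the keratin genes KRT7, KRT8, KRT18, KRT19, KRT20 and KRT80, the mucin genes MUC1, MUC4 and MUC20, and EPCAM. They were set by name, with earlier results of these data known, and all 10 were found among the 56236 annotated genes of the tables. RNA was sequenced from TE5 and KYSE140, established human cell lines of esophageal squamous cell carcinoma (ESCC), with 1 library per condition. TE5 was infected with lentivirus carrying a non-targeting scramble short hairpin RNA (shRNA) or an shRNA against TP63, SOX2 or CCAT1 (shTP63, shSOX2, shCCAT1), and KYSE140 carried the scramble, TP63 or SOX2 shRNA. The 7 libraries held between 68532611 and 98036494 estimated counts. With 1 shRNA per target and 1 library per condition and line, a comparison within a line has no replicate check, and a p-value is given only for the fit in which the 2 lines stand as replicates.

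Keratins are the intermediate filament proteins of epithelia, and each filament pairs a type I with a type II chain. Simple and glandular epithelia build them mainly from KRT8 and KRT7 (type II) with KRT18, KRT19 and KRT20 (type I), whereas stratified squamous epithelium uses KRT5 with KRT14 and KRT15 in its basal layer and other pairs above it. TP63 is the master transcription factor of stratified epithelium, and SOX2 is co-amplified with it in squamous carcinoma. The question put to these data was whether genes of a glandular program were higher where TP63 or SOX2 was lowered.

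The targeted genes were checked first. TP63 (chr3:189349178-189615065, hg19) went from 27401 to 6894 normalized counts upon its silencing in TE5 and from 48178 to 12551 in KYSE140, where normalized counts are estimated counts divided by a library scaling factor. The log2 fold change of TP63 was -1.99 in TE5 and -1.94 in KYSE140. SOX2 (chr3:181429713-181432224) went from 12262 to 4835 normalized counts in TE5 shSOX2 and from 28782 to 21989 in KYSE140 shSOX2, a log2 fold change of -1.34 and -0.39. SOX2 was lowered less in KYSE140, with 76.4% of the control level left, than in TE5, with 39.4%. In TE5 shTP63, SOX2 was also at 66.6% of its control level, and in KYSE140 shTP63 at 104%. TP63 in turn was at 115.7% of its control level in TE5 shSOX2 and at 125.7% in KYSE140 shSOX2. CCAT1 was not analysed here. The labels place each scramble library in another sequencing lane than the TP63 and SOX2 knockdowns of its line, and for TE5 in another flow cell than all 3 knockdowns, so knockdown and lane cannot be told apart. The shTP63 and shSOX2 libraries of a line shared a lane, and they are compared with each other below.

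Most of the 10 genes were already abundant in the control cells. Abundance is given as TPM, transcripts scaled by their length and by the library total, so that genes can be compared. In TE5 scramble the order was KRT19 (1357 TPM), KRT8 (774), KRT18 (400), EPCAM (255), KRT80 (118), MUC20 (71.4), KRT7 (55.8), MUC1 (39.9), MUC4 (2.59) and KRT20 (0.035). KRT19 ranked 70 among all genes of that library and KRT8 ranked 136. In KYSE140 scramble KRT19 (1054 TPM), KRT8 (816), KRT18 (254) and EPCAM (214) stood at similar levels, followed by MUC1 (18.6), MUC20 (5.77), KRT80 (5.14), KRT7 (1.87) and MUC4 (1.56). The lines thus differed most in KRT7, KRT80 and MUC20, which were 29.9-fold, 23.0-fold and 12.4-fold more abundant in TE5 scramble, while KRT8 differed 0.949-fold. KRT20, the keratin of intestinal and urothelial surface cells, had 0 counts in all 3 KYSE140 libraries, where the limit that a count of 0 allows is 3 counts.

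**Figure D1:**
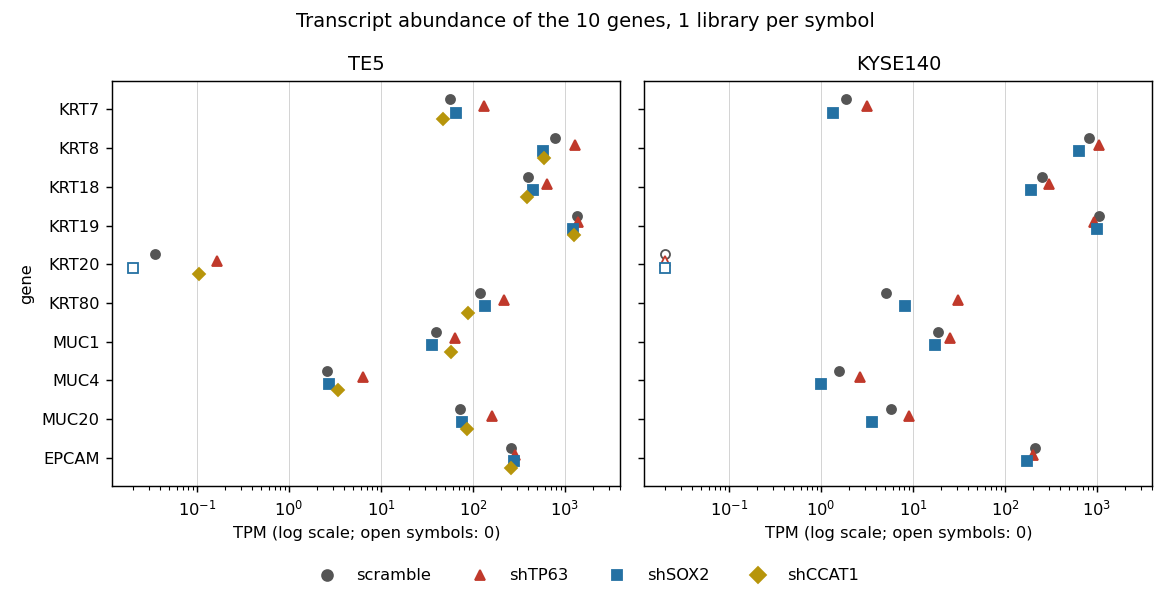
Abundance of the 10 genes in TPM on a log axis, TE5 on the left and KYSE140 on the right, 1 symbol per library, with open symbols for a value of 0. The shTP63 triangle lies right of the scramble circle for KRT7, KRT8, KRT18, KRT80, MUC1, MUC4 and MUC20 in both lines.

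Upon silencing of TP63, 7 of the 10 genes were higher than in scramble in both lines. They were KRT7, KRT8, KRT18, KRT80, MUC4, MUC20 and MUC1, the last counted by its annotated transcripts. Among genes with at least 10 estimated counts in either library, 13043 of 24405 were above scramble in TE5 and 11967 of 21852 in KYSE140. The share above scramble in both lines at once was not computed. Any value above 0 counted as higher. Ranked among all genes tested, the 7 ran from percentile 72.7 (KRT18) to 90.6 (MUC4) in TE5. In KYSE140 they ran from percentile 64.6 (KRT18) to 98.4 (KRT80). KRT19 and EPCAM stayed within 0.22 log2 units of scramble. A gene was counted as past 2-fold where its log2 fold change reached 1 and it had at least 10 estimated counts in either library. In TE5 shTP63, 4 of 10 genes were past 2-fold upward (KRT7, KRT20, MUC4 and MUC20) and 0 downward, beside 14.6% of 24405 genes upward and 5.72% downward. In KYSE140 shTP63, 1 of 9 genes was past 2-fold upward (KRT80) and 0 downward, beside 8.91% and 4.29% of 21852 genes. No member was past 2-fold in both lines, beside 2.25% of 20344 genes upward and 0.737% downward. These shares over all genes were made up largely of low counts: 30.0% of genes with a mean under 100 normalized counts were past 2-fold upward in TE5 shTP63 and 22.7% in KYSE140 shTP63. KRT20 reached 10 counts in shTP63 but not in scramble. With the minimum of 10 counts asked of the scramble library itself, which was added after the values had been seen, 3 of 9 members were past 2-fold upward in TE5 shTP63, beside 7.1% of 21332 genes upward and 6.55% downward. In KYSE140 shTP63 it was 1 of 9, beside 2.79% of 19346 genes upward and 4.84% downward. The median log2 fold change of these 9 members was 0.72 in TE5 and 0.67 in KYSE140, against -0.04 and -0.003 over all genes with that minimum.

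KRT80 (chr12:52562780-52585798, minus strand), a type II keratin of differentiating epithelia, had the largest difference of the 10 genes in KYSE140. It is not among the simple keratins that are summed below. It measured 1211 normalized counts in KYSE140 scramble, 2134 in shSOX2 and 7091 in shTP63. In TE5 it measured 25589 in scramble, 29415 in shSOX2, 17973 in shCCAT1 and 42185 in shTP63, so shTP63 was the highest library of each line. Silencing of TP63 gave a log2 fold change of 2.55 in KYSE140 (95% counting interval 2.45 to 2.65) and 0.72 in TE5 (0.70 to 0.74). The interval covers counting error only, not the difference between cultures. The KYSE140 value lay at percentile 98.4 of all genes tested in that comparison, and the TE5 value at percentile 79.2 in its own. The KYSE140 level in shTP63 remained under that of any TE5 library, at 30.6 TPM against 88.1 in the lowest TE5 library. Transcripts KRT80-202 and KRT80-201 held 50.9 to 64.7% and 31.9 to 37.8% of its counts in every library.

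KRT7 (chr12:52626304-52645970, plus strand), the type II keratin of ducts and glands, was counted at 1942 in TE5 scramble, 2161 in shSOX2, 1497 in shCCAT1 and 3977 in shTP63, in normalized counts. In KYSE140 it was counted at 77.9 in scramble, 58.3 in shSOX2 and 124.7 in shTP63. Silencing of TP63 moved it by a log2 fold change of 1.03 in TE5 (0.96 to 1.11) and 0.67 in KYSE140 (0.22 to 1.15), the wider interval coming with the lower counts. In every library the largest part of these counts fell on KRT7-212, a transcript of 816 bases without a defined coding sequence. It took 74.8 to 76.9% in TE5 and 46.3 to 59.6% in KYSE140. KRT7-AS, the antisense gene at the locus, shared 6.27% of the 31-base words of KRT7 transcripts. The strand setting of the counting is not given in the sources used here, so reads of the 2 genes cannot be told apart there.

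KRT8 (chr12:53290971-53343738, minus strand) and KRT18 (chr12:53342655-53346690, plus strand) encode the type II and type I partners of the first keratin filament of simple epithelium. Their gene models overlap at their ends. KRT8 measured 72358 normalized counts in TE5 scramble, 54319 in shSOX2, 51524 in shCCAT1 and 105938 in shTP63, and in KYSE140 84350, 73450 and 107320 in scramble, shSOX2 and shTP63. In both lines shTP63 was the highest library and the other knockdowns lay under scramble. KRT18 measured 31027, 34410, 27368 and 44041 normalized counts in TE5 scramble, shSOX2, shCCAT1 and shTP63, and 21546, 18104 and 24744 in KYSE140 scramble, shSOX2 and shTP63. With TP63 silenced, the log2 fold change of KRT8 and KRT18 was 0.55 and 0.50 in TE5, and 0.35 and 0.20 in KYSE140. Both genes have many processed pseudogenes, 51 named for KRT8 and 67 for KRT18, and 25.3% and 38.2% of the 31-base words of their transcripts also occur in other genes. The counts placed on the pseudogenes, which are not in the counts above, were equal to 0.92 to 4.55% of the KRT8 count and 0.32 to 1.07% of the KRT18 count. The most abundant of them, KRT8P12 (chr3:160283235-160287036), measured 1811 and 2253 normalized counts in TE5 scramble and shTP63.

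KRT19 (chr17:39679869-39684560, minus strand), a type I keratin found in ductal cells and in the basal layer of many stratified epithelia, moved little. It measured 95262, 86218, 82637 and 85342 normalized counts in TE5 scramble, shSOX2, shCCAT1 and shTP63, and 82929, 87975 and 71234 in KYSE140 scramble, shSOX2 and shTP63. With TP63 silenced, KRT19 changed by a log2 value of -0.16 in TE5 and -0.22 in KYSE140. On the TPM scale the TE5 value was 0.01, so its sign in TE5 depends on the scaling. KRT20 (chr17:39032141-39041494, minus strand) had 3 estimated counts in TE5 scramble, 17 in shTP63, 11 in shCCAT1 and 0 in shSOX2. The ratio of shTP63 to scramble was 3.44-fold, with a log2 counting interval from 0.28 to 4.48, at 0.164 TPM in the higher library.

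The 3 mucins are membrane-bound glycoproteins of the apical surface. MUC4 (chr3:195473636-195538844, minus strand), a ligand of the receptor ERBB2 and a marker of several glandular epithelia, measured 399.8 normalized counts in TE5 scramble, 402.4 in shSOX2, 589.0 in shCCAT1 and 1025 in shTP63. In KYSE140 it measured 541.2, 482.0 and 896.9 in scramble, shSOX2 and shTP63. The shTP63 library was the highest of each line, with a log2 fold change of 1.36 in TE5 (1.19 to 1.53) and 0.73 in KYSE140 (0.56 to 0.90).

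MUC20 (chr3:195447755-195467994, plus strand), which lies beside MUC4, measured 7879, 8377, 7994 and 15785 normalized counts in TE5 scramble, shSOX2, shCCAT1 and shTP63. In KYSE140 it measured 548.3, 504.8 and 930.1 in scramble, shSOX2 and shTP63. Over scramble, the shTP63 value was a log2 fold change of 1.00 in TE5 (0.96 to 1.04) and 0.76 in KYSE140 (0.59 to 0.93), and the TE5 value lies at the 2-fold threshold itself. The lines used different transcripts, with MUC20-204 holding 81.2 to 85.9% of the counts in TE5 and MUC20-203 holding 58.5 to 82.04% in KYSE140. MUC20 shares 35.9% of its 31-base words with other genes, chiefly the overlapping transcript MUC20-OT1 (27.4%) and the pseudogene MUC20P1 (14.8%). MUC20P1 (chr3:195341818-195347104) moved alongside it in TE5, from 1177 to 2865 normalized counts upon TP63 silencing, a log2 fold change of 1.28. How far reads were divided between the 2 copies was not tested.

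MUC1 (chr1:155158300-155162707, minus strand), the best studied membrane mucin of glands, measured 290.1, 329.9, 403.1 and 568.6 normalized counts in TE5 scramble, shSOX2, shCCAT1 and shTP63. In KYSE140 it measured 250.3, 259.8 and 486.8 in scramble, shSOX2 and shTP63. Relative to scramble, shTP63 was at a log2 fold change of 0.97 in TE5 (0.77 to 1.18) and 0.96 in KYSE140 (0.71 to 1.21). These counts are those of the annotated MUC1 transcripts, of which 29.7 to 47.6% fell on a transcript with a retained intron. The tables also hold ENST00000368395, of 1811 bases, which the annotation used here does not list and which stands directly before the MUC1 transcripts. Its identifier number falls between those of the MUC1 transcripts ENST00000368393 and ENST00000368396, but its gene was not determined. In scramble ENST00000368395 had 5336 estimated counts in TE5 and 2022 in KYSE140, against 271.4 and 182.7 for the annotated transcripts. Between scramble and shTP63 it differed by a log2 fold change of 0.92 in TE5 and 0.03 in KYSE140. Counted together with it and with ENST00000494844, which stands between MUC1 transcripts, MUC1 would change by 0.89 in TE5 and by 0.07 in KYSE140, so the KYSE140 value holds only for the annotated transcripts.

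The starts of KRT8, MUC1 and MUC4 are shown because these genes were higher in both shTP63 libraries and the RefSeq table of promoters (GRCh38.p14) holds them. KRT20 was the only other member matched. Each window has 250 bases before the annotated start and 50 after it, 5′ to 3′ on the gene's own strand, with capitals for a match to the TATA box (TATAAA), a SOX site (ACAANG), the half-site of the p53 family or an AP-1 site (TGANTCA), searched on both strands. The windows are chr12:52926420-52926719, chr1:155192866-155193165 and chr3:195811880-195812179, all on the minus strand.
KRT8: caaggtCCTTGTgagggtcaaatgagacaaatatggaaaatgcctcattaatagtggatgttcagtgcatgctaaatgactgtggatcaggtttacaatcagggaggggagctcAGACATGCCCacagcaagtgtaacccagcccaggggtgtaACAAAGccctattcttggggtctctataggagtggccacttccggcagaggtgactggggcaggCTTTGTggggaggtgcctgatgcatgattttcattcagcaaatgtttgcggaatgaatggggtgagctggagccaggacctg
MUC1: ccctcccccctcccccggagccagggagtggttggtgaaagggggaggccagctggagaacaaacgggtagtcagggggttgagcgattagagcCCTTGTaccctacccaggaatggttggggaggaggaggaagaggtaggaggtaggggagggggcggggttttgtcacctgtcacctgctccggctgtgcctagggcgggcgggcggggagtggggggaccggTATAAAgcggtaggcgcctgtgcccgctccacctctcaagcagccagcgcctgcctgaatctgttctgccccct
MUC4: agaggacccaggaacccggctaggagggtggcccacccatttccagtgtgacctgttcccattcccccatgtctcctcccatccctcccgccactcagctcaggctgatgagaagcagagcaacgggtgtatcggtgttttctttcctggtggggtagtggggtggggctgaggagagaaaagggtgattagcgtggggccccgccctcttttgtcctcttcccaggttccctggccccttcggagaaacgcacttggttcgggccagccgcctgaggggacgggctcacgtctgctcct
The KRT8 window holds the letters of a p53-family half-site, the motif that TP63 recognises, at bases 115 to 124. It also holds the letters of a SOX site at bases 7 to 12, 155 to 160 and 219 to 224. Whether KRT8-201, which held 92.9 to 96.6% of the KRT8 counts, begins at this window was not determined. MUC1 holds a TATA box at bases 227 to 232 and the letters of a SOX site at bases 95 to 100. MUC4 holds none of the 4 motifs. The KRT20 window, not printed because the gene had 17 counts at most, holds a half-site at bases 228 to 237 and the letters of a SOX site at bases 129 to 134. Of 27305 promoters of the same length, 6.5% hold the half-site, 35.8% the SOX site, 12.0% the TATA box and 7.8% the AP-1 site. The windows of KRT8, MUC1 and MUC4 are 50.7%, 65.7% and 62.0% G or C.

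EPCAM (chr2:47572297-47614740, plus strand), an adhesion molecule of simple epithelia and carcinomas, was nearly level. It measured 18827, 20555, 17304 and 18526 normalized counts in TE5 scramble, shSOX2, shCCAT1 and shTP63, and 17296, 15743 and 16384 in KYSE140 scramble, shSOX2 and shTP63. EPCAM in shTP63 was at a log2 fold change of -0.02 in TE5 and -0.08 in KYSE140, and the TE5 value was 0.13 when only total counts were used for scaling.

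**Figure D2:**
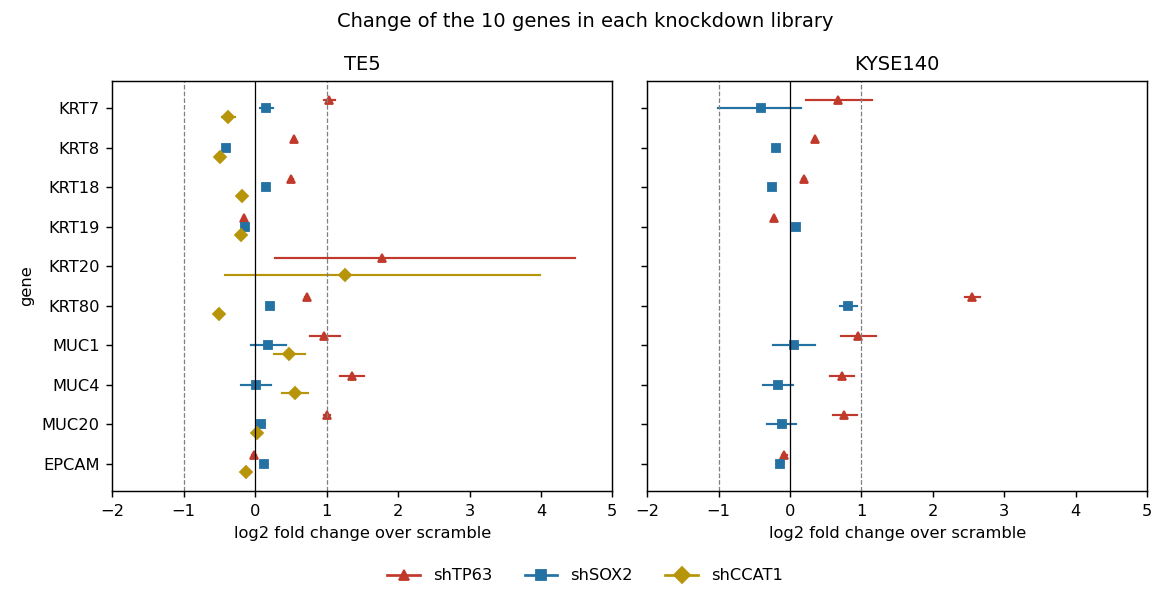
Log2 fold change over scramble of the 10 genes in each knockdown library, with lines for the 95% counting interval, which covers counting error only, and dashed lines at 2-fold. The shTP63 triangles of 7 genes lie right of 0 in both panels, with KRT80 at 2.55 in KYSE140, and the shSOX2 squares lie between -0.41 and 0.82. KRT20 is drawn only where it had at least 10 counts.

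When the 2 lines were taken as replicates in a single fit with the line as a term, 0 of 9 members tested passed an adjusted p of 0.1 upon TP63 silencing by edgeR's quasi-likelihood test, and 0 of 30171 features passed in either direction (0.0%). The adjusted p of TP63 itself was 0.287 in that edgeR fit, which has 2 residual degrees of freedom. At an unadjusted p under 0.05, edgeR gave 6 of 9 members, all upward, beside 4.44% of all features upward and 6.62% downward. These were MUC20 (fitted log2 fold change 0.91, SE 0.13), MUC4 (1.07, SE 0.27), MUC1 (0.98, SE 0.26), KRT7 (0.90, SE 0.21), KRT80 (1.67, SE 0.44) and KRT8 (0.47, SE 0.16). With ENST00000368395 and ENST00000494844 counted, MUC1 was at a fitted 0.51, with an unadjusted p of 0.068 in the edgeR fit, and left these 6. The adjusted p in the edgeR fit ranged from 0.303 for MUC20 to 0.944 for EPCAM. DESeq2's Wald test, run as an alternative, gave an adjusted p under 0.1 for the same 6 genes, where it called 3.72% of 15574 genes upward and 10.7% downward. Among them the DESeq2 adjusted p ran from 8.81e-06 (MUC20) to 0.0923 (KRT8). Leaving the line out was tried in the edgeR fit only, where the adjusted p of each of the 6 reached 1.0. DESeq2 was not run without the line. The calls of these genes therefore depend on the test, while their direction was upward in both lines.

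Upon silencing of SOX2, none of the 9 members with at least 10 counts was past 2-fold in either line, beside 6.3% of 22726 genes upward and 4.98% downward in TE5 and 6.92% and 6.39% of 20747 genes in KYSE140. In both lines at once, 0.874% of 19230 genes were past 2-fold upward and 0.879% downward. The median of the members was 0.13 in TE5 and -0.14 in KYSE140, against -0.01 and 0.04 over all genes. In TE5 the values ran from -0.41 (KRT8) to 0.20 (KRT80). In KYSE140 they ran from -0.41 (KRT7, interval -1.01 to 0.16) to 0.82 (KRT80, interval 0.70 to 0.94). KRT8 was lower than scramble in both lines, by -0.41 and -0.20. KRT80 was higher in both, at 0.20 and 0.82. In the fit over both lines, edgeR called 0 of 9 members at an adjusted p of 0.1 and 0 at an unadjusted p under 0.05 (all features: 3.24% upward and 4.21% downward), with adjusted p from 0.723 to 0.983, beside 0.0% of features called upward and 0.00331% downward. DESeq2 called 0 members and 1.55% of 20223 genes upward and 2.83% downward. The KYSE140 values stand beside a SOX2 level of 76.4% of control.

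In TE5 shCCAT1, 1 of 10 members was past 2-fold upward (KRT20, at 11 against 3 counts, interval -0.42 to 3.98) and 0 downward, beside 12.1% and 5.96% of 24112 genes. The keratins KRT7, KRT8 and KRT80 were lower than scramble, with log2 fold changes of -0.37, -0.49 and -0.51. MUC4 and MUC1 were higher, at 0.56 and 0.47, the latter turning to -0.48 when the 2 unlisted transcripts were counted with MUC1. The median of the 9 members with at least 10 counts in scramble was -0.18.

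The shTP63 and shSOX2 libraries were then compared directly, since they share a lane in each line and the comparison does not use the scramble libraries. It was added after the values had been seen. KRT7 was at 0.88 in TE5 and 1.08 in KYSE140 (log2 of shTP63 over shSOX2), KRT8 at 0.96 and 0.55, KRT18 at 0.36 and 0.45, and KRT80 at 0.52 and 1.73. MUC4 was at 1.35 and 0.90, MUC20 at 0.91 and 0.88, and MUC1 at 0.78 and 0.90. With the 2 unlisted transcripts counted, MUC1 was at 1.15 in TE5 and 0.43 in KYSE140. KRT19 was at -0.02 and -0.31 and EPCAM at -0.15 and 0.06. Past 2-fold upward were 2 of 10 members in TE5 (KRT20 and MUC4) and 2 of 9 in KYSE140 (KRT7 and KRT80), beside 14.2% of 24561 and 10.7% of 22051 genes. Downward it was 0 members in each line, beside 6.41% and 6.59% of genes. KRT20 stood at 17 counts against 0, so it reached the minimum only through shTP63, and no fold is given. Among members with a mean of at least 100 normalized counts, 1 of 9 was upward in TE5 (MUC4), beside 5.44% of 14796 genes. In KYSE140 it was 1 of 8 (KRT80), beside 3.37% of 14114 genes. In the edgeR fit over both lines 0 of 9 members passed an adjusted p of 0.1, beside 0.00331% of features upward, and 7 of 9 had an unadjusted p under 0.05, all upward, beside 6.25% of features upward and 7.16% downward. The lowest adjusted p in that edgeR fit was 0.162, for MUC20. DESeq2 called KRT7, KRT8, KRT80, MUC1, MUC4 and MUC20, with 5.49% of 20223 genes called upward and 9.31% downward.

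The keratins were also summed by class. The simple keratins KRT7, KRT8, KRT18, KRT19 and KRT20 made up 60.9% of the TPM of these and 11 stratified keratins in TE5 scramble, 68.6% in shTP63, 60.4% in shSOX2 and 71.1% in shCCAT1. In KYSE140 the share was 9.62% in scramble, 15.4% in shTP63 and 5.53% in shSOX2. The change of this share in KYSE140 lay mostly in the stratified keratins, whose sum was 19970 TPM in scramble, 12543 in shTP63 and 31395 in shSOX2, while the simple keratins summed to 2126, 2286 and 1836 TPM. In TE5 shTP63 the simple keratins summed to 3416 TPM against 2587 in scramble, and in shCCAT1 to 2279, where the stratified sum was 928.2 TPM against 1661. The type II genes KRT7 and KRT8 together stood at 0.472 of the type I genes KRT18 and KRT19 in TE5 scramble, 0.698 in shTP63, 0.385 in shSOX2 and 0.39 in shCCAT1. In KYSE140 the ratio was 0.625, 0.867 and 0.533 in scramble, shTP63 and shSOX2, so shTP63 was the highest and shSOX2 the lowest library in each line.

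**Figure D3:**
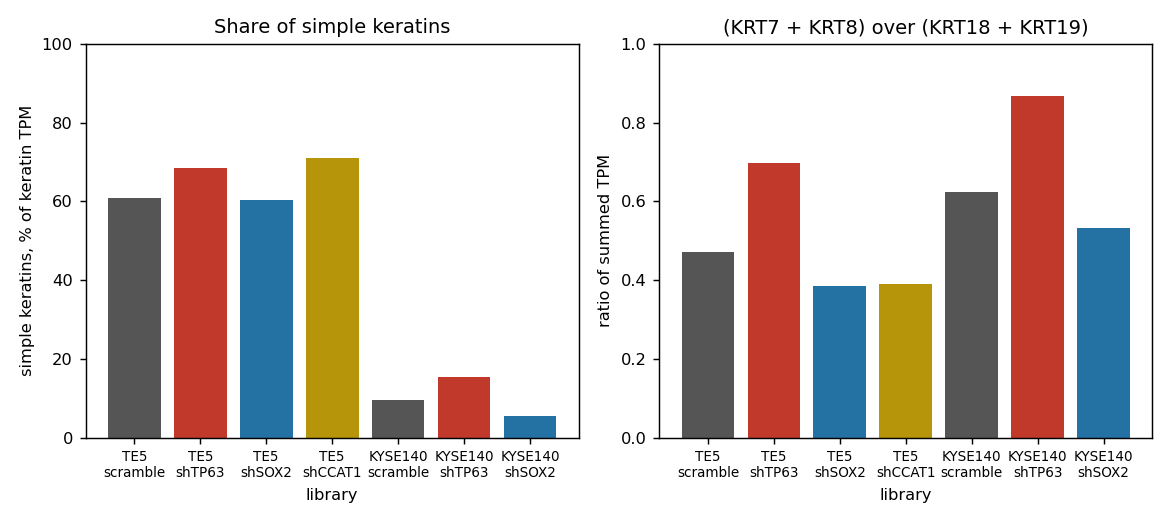
Left, simple keratins as a percentage of the summed TPM of simple and stratified keratins in each library. Right, summed TPM of KRT7 and KRT8 divided by that of KRT18 and KRT19. Each bar is 1 library; the ratio is 0.698 and 0.867 in the shTP63 libraries of TE5 and KYSE140, above the 0.472 and 0.625 of scramble.

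Other genes of glandular epithelium were read from 7 wider lists. In these lists a gene was counted where the scramble library itself held at least 10 counts, so that no gene entered through a knockdown library in which it was high. The shares over all genes are then those given above for TP63 silencing, and for SOX2 silencing 2.48% upward and 5.31% downward in TE5 and 2.93% and 6.85% in KYSE140. Of 23 glandular and columnar genes, 11 had these counts in TE5, and 7 of the 11 were past 2-fold upward and 0 downward in shTP63. They were AGR2, CEACAM5, CDH17, PIGR, PSCA, TMPRSS2 and CTSE, the last 5 being named after their values were seen. Of these, CDH17 and TMPRSS2 started from 11.9 and 13.7 normalized counts, near the minimum. The rest of the 11 were CEACAM6 at 0.55, ANXA10 at 0.09, LGALS4 at 0.04 and TSPAN8 at -0.11. ANXA10 and TSPAN8 were also named after their values were seen. AGR2, an endoplasmic reticulum protein of mucus-secreting cells, went from 1177 to 3617 normalized counts, and CEACAM5, a surface glycoprotein of columnar epithelium, from 50.5 to 413.9. In KYSE140 shTP63, 6 genes of the list had these counts, with 1 upward, 1 downward and a median of 0.71. The gene upward was CDH17 at 1.08 and the gene downward TSPAN8 at -1.35, while LGALS4 was at 0.78 and CEACAM6 at 0.17. There AGR2 measured 192.8 and 302.1 normalized counts in scramble and shTP63 and CEACAM5 142.6 and 262.4. In the edgeR fit over both lines the adjusted p was 0.423 for AGR2 and 0.466 for CEACAM5. The summed TPM of the list was 74.0 in TE5 scramble and 185.5 in shTP63, and 10.7 and 19.4 in KYSE140, of which AGR2 made up 39.0, 122.9, 6.15 and 10.2. In TE5 shSOX2, 2 of 11 genes of the list were upward and 0 downward (median -0.19), and in KYSE140 shSOX2 1 of 6 was upward and 1 downward (median 0.34). The 2 in TE5 shSOX2 were CDH17 at 1.16 and TMPRSS2 at 2.09, which were also past 2-fold in TE5 shTP63.

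Of 11 other mucin genes, 1 of 4 was past 2-fold upward and 0 downward in TE5 shTP63, and 1 of 3 was upward and 1 downward in KYSE140 shTP63. MUC3A was the only mucin of this list with at least 100 counts in each line. In shTP63 it was at 1.56 in TE5 and -0.27 in KYSE140. In shSOX2 it was at 1.02 in TE5 and -0.23 in KYSE140. The gel-forming mucin MUC5AC was past 2-fold downward in KYSE140 shTP63, at -2.59 (65.8 to 10.1 normalized counts). In TE5 shTP63 it was also lower, at -0.80 (852.0 to 489.8). MUC2, the mucin of intestinal goblet cells, had at most 1.2 counts in any library.

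Of 18 transcription factors of glandular tissues, 17 were in the tables. In TE5 shTP63, 3 of 15 were past 2-fold upward and 2 downward, beside the 7.1% and 6.55% of all genes, with a median of -0.22. SOX9, a factor of ductal and progenitor cells, was at 1.30 in TE5 and 0.23 in KYSE140. CDX2, the intestinal master factor, was at -1.07 in TE5 and had 0 counts in KYSE140. ELF3, an epithelial ETS factor, was at 0.71 and 0.54, and FOXA1, a pioneer factor of endodermal glands, at 0.29 and 0.83. GATA4, a factor of gastric and other foregut epithelia, was lower in both lines, at -0.70 and -0.28. In KYSE140 shTP63, 0 of 11 factors were past 2-fold in either direction. Upon SOX2 silencing 2 of 15 were upward in TE5 and 1 of 11 in KYSE140, with 0 downward in both. SOX9 was at 1.32 in TE5 shSOX2 and -0.19 in KYSE140 shSOX2. Its log2 of shTP63 over shSOX2 in TE5 was -0.02, so SOX9 stood alike in these TE5 knockdowns.

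Among 12 junction genes of simple epithelium, 0 of 9 were past 2-fold in TE5 shTP63, and 0 of 12 upward and 1 downward in KYSE140 shTP63. CLDN4, a tight junction claudin, was the largest named difference, at 0.94 in TE5 and 0.74 in KYSE140, with an edgeR adjusted p of 0.303 over both lines. CDH1, the cadherin of epithelial adherens junctions, was at 0.36 and 0.15.

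Of 11 stratified squamous keratins, 3 of 9 were past 2-fold downward and 0 upward in TE5 shTP63, beside 6.55% and 7.1% of all genes, with a median of -0.28. In KYSE140 shTP63, 3 of 11 were downward and 1 upward, beside 4.84% and 2.79%, with a median of -0.52. KRT17, named after its value was seen, was higher in TE5 shTP63, at 73400 normalized counts against 38201 in scramble (log2 0.94), and at -0.64 in KYSE140. KRT5, the basal type II keratin, was at -1.81 in TE5 and -0.70 in KYSE140, and KRT6A, a keratin of wounded and hyperproliferative epidermis, at -2.66 and -0.45. KRT13 and KRT15 were at -2.10 and -1.17 in KYSE140 and at -0.12 and -0.41 in TE5. Upon SOX2 silencing 5 of 11 were upward and 0 downward in KYSE140, with KRT16 at 2.07 and KRT17 at 1.14, whereas in TE5 3 of 9 were downward and 0 upward, with KRT6A at -2.89.

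Markers of other cells moved beside these genes in places. Of 8 mesenchymal markers, 3 of 7 were past 2-fold upward in TE5 shTP63 and 0 downward, beside 7.1% and 6.55% of all genes, among them FN1, from 1270 to 3078 normalized counts, while VIM, the mesenchymal intermediate filament, was lower at -0.82. Their summed TPM was between 92.1 and 118.0 in TE5 and between 174.6 and 205.4 in KYSE140. In KYSE140 shTP63, 0 of 6 were past 2-fold. Of 6 leukocyte markers, LYZ, the lysozyme of myeloid cells, had at most 5.3 counts in any library and HBB, the globin of red cells, at most 8.0. The list's sum (4.22 to 15.9 TPM in KYSE140, 49.2 to 117.1 in TE5) was mostly CD68, a lysosomal protein. Their part in the values of the 10 genes was not tested.

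**Figure D4:**
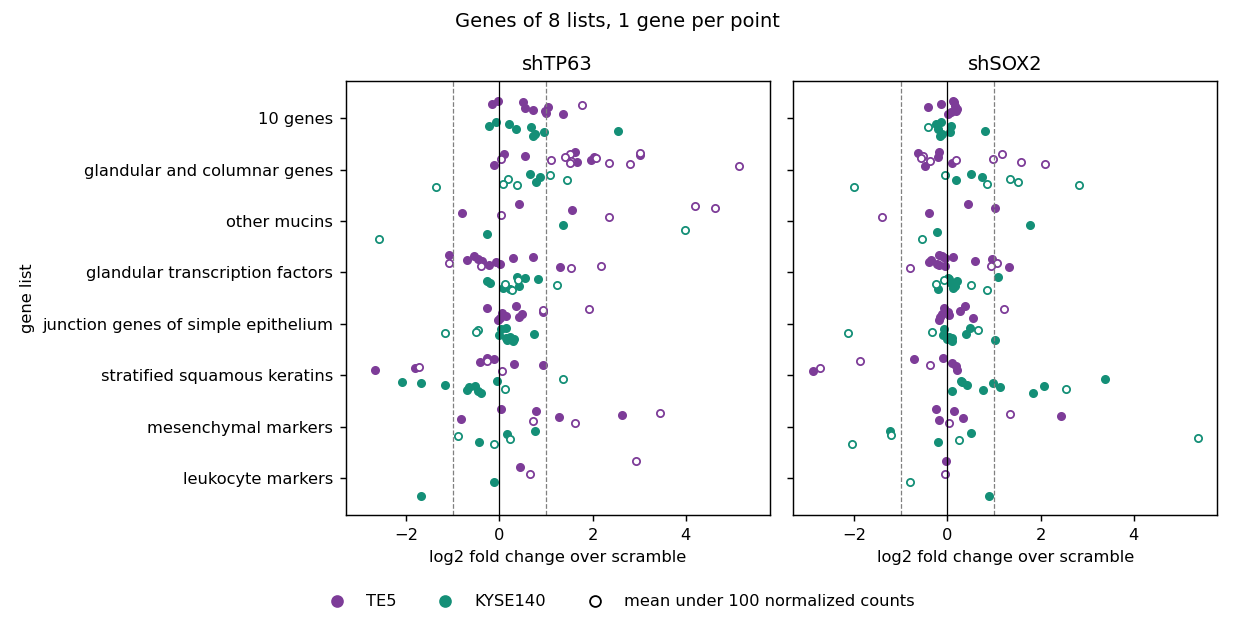
Log2 fold change over scramble of each gene of the 10-gene set and the 7 wider lists, for shTP63 on the left and shSOX2 on the right, with TE5 in purple and KYSE140 in green. Open circles have a mean under 100 normalized counts and dashed lines mark 2-fold. Points include genes that reached 10 counts only in the knockdown library, which places them to the right. KRT80 in KYSE140 shTP63 lies at 2.55.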

How the data were processed

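Total RNA was taken with the RNeasy Kit and sequenced as paired reads of 100 bases. The authors quantified transcripts with kallisto against hg19 (Ensembl release 82) and used DESeq2, per the labels and the methods. The deposited tables list estimated counts and TPM by transcript, not normalized between libraries. Here both were summed per gene with GENCODE release 44 on GRCh37, which matched 182863 of 196354 transcripts and 93.45 to 93.69% of the counts. Transcripts without a match were kept as single features in the fit and in library totals. Counts were scaled by TMM over 7 libraries (edgeR 4.0.16, R 4.3.3). Log2 fold changes used a pseudocount of 1 and a minimum of 10 counts in either library (for the wider lists, in scramble), and 95% intervals came from the exact binomial (Clopper-Pearson) limits of the 2 counts. Counts were rounded for edgeR's quasi-likelihood test of 6 libraries with line and condition as terms, with Benjamini-Hochberg adjustment over 30171 features. DESeq2 1.42.0 was an alternative. Total counts, TPM with a pseudocount of 0.1, a pseudocount of 10, a minimum of 1 count, pseudogene counts added, transcripts not in the annotation added or left out, the line term left out and the shCCAT1 library added were also tried. Shared sequence was measured as 31-base words found in transcripts of other genes.

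The 10 genes, the 7 lists and the tests were chosen with earlier results of these data known. Text names all 10 genes, the targeted genes, abundant pseudogenes and, per list, up to 4 genes with the largest mean change over both lines among those with at least 100 counts in each line. Other genes are named where a small count, a defining marker or the count of a list called for it, after their values were seen. With 1 library per condition and line, the lines stood in for replicates, and p-values measure the spread between 2 lines only. CCAT1 is not reported here.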

Additional observations from a re-analysis of the deposited data

Results flagged for a closer look

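Upon SOX2 silencing, 3 members had log2 fold changes of opposite sign in the 2 lines with a counting interval that leaves out 0 in each. KRT7, MUC4 and MUC20 also had opposite signs, with an interval that holds 0 in at least 1 line. KRT18 was at 0.149 log2 units over scramble in TE5 and at -0.251 in KYSE140. KRT19 was at -0.144 in TE5 and 0.085 in KYSE140, where the sign turned on the TPM scale. EPCAM was at 0.127 in TE5 and -0.136 in KYSE140. With 1 library per condition and line the difference between lines was not tested, and SOX2 itself was at 39.4% of scramble in TE5 and 76.4% in KYSE140.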

How the results depend on the processing

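The count of members past 2-fold upon TP63 silencing in KYSE140 was 2 when only total counts were used for scaling, which moved all genes of the TP63 comparison in TE5 upward by 0.15 on the log2 scale and those in KYSE140 by 0.06. Upon SOX2 silencing in TE5 a minimum of 1 count gave 1 (KRT20, with 3 counts against 0). In TE5 shCCAT1 a pseudocount of 10 and TPM values each gave 0. For shTP63 over shSOX2, total counts gave 5 in each line, TPM gave 5 in TE5 and 4 in KYSE140, and a pseudocount of 10 gave 1 in KYSE140. In the fit over both lines, DESeq2 called 6 members upon TP63 silencing and edgeR without the unmatched transcripts called 1 (MUC20, adjusted p 0.0923). For shTP63 over shSOX2, DESeq2 called 6 members, edgeR without unmatched transcripts 4, edgeR with transcripts between 2 of the same gene added 2, and with the transcript before MUC1 added as well 1. The causes were not tested. Under 8 alternatives, 117 of 528 values of the 66 member changes left their counting interval, and 10 of the 66 changes took another sign under some alternative, 0 of them as large as 0.5 in the main values. MUC1 in TE5 shCCAT1, at 0.47, ranged from -0.70 to 0.63. The replicate numbers pair no samples, and no replicate could be left out with 1 library per condition and line. KRT20 rests on 17 counts or fewer in every library.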
